A study of Rattus norvegicus with 38 samples.

Results

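Klf9, Sgk1, Hif3a, Map3k6, Errfi1, Klf15 and Ddit4, 7 genes known to be switched on by glucocorticoid hormones, were followed through the H3K27ac peaks of rat substantia nigra (SN) and motor cortex (CTX) after rotenone exposure. The members are the deposited peaks that stand in the authors' lists of differentially acetylated peaks under one of these gene names. These came to 34 of the 151509 deposited peaks, of which 7 were SN and 27 motor cortex peaks. The members were thus selected on the direction and adjusted significance of the authors' rotenone against vehicle contrast, and the direction of each is given as a description, with no test.

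Male Lewis rats aged 8 to 10 months received rotenone, a pesticide that blocks mitochondrial complex I, by intraperitoneal injection at 2.8 mg/kg once a day for 21 days, or vehicle alone. Both regions were dissected 24 h after the last injection from 5 rotenone and 4 vehicle rats. The methods also describe dosing up to a behavioural endpoint, set by failure of a postural test or by loss of body mass. The study describes weight loss in rats dosed with rotenone, and its part in these results was not tested. The control samples carry the label PBS although the protocol names Miglyol, an oil, as the vehicle. The labels give the nigral tissue as ventral midbrain and the cortical tissue as cortex. H3K27ac is an acetyl mark on histone H3 found at active promoters and enhancers, and it was read by ChIP-seq, in which an antibody pulls down marked DNA for sequencing. Reads of all rats of a region were merged before peaks were called, so each region has 1 list of positions with no height, read count or value per rat. Spread between rats could therefore not be given, and the tissue labels could not be checked against marker genes in single samples. The study describes fewer reads for the SN than for the motor cortex. In whole tissue, fewer cells of a type and less acetylation per cell cannot be told apart.

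Glucocorticoids bind the glucocorticoid receptor, a transcription factor that enters the nucleus with its hormone and binds DNA, often at enhancers far from the genes it switches on. Corticosterone, the main glucocorticoid of rats, rises under stress and acts on neurons, glia and blood vessels. Klf9 and Klf15 encode zinc finger transcription factors, Sgk1 a kinase that regulates ion transport, Map3k6 a stress kinase at the top of a MAP kinase cascade, Errfi1 an inhibitor of the epidermal growth factor receptor, Ddit4 an inhibitor of the mTORC1 growth pathway, and Hif3a a member of the hypoxia-inducible factor family. Several of them also answer to other signals, such as hypoxia or growth factors.

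In the SN, all 7 members were listed as higher in rotenone rats. Of all deposited SN peaks, 1.24% (874) were listed as higher and 1.72% (1216) as lower. The deposited SN list holds more peaks than the study describes, so these SN shares are lower than they would be over the study's own peak set. For the same reason, an SN peak given below as unlisted may not have been compared between treatments at all. In the motor cortex, 26 members were listed as higher and 1 as lower. Of all deposited motor cortex peaks, 4.97% (4015) were listed as higher and 6.45% (5212) as lower. A peak had to be listed to be a member, so nothing is read from the distance between the members and these shares. The like base is the listed peaks alone, and in both regions fewer of them were higher than lower. Klf15 had no SN peak in the lists and the other 6 genes had peaks listed as higher in both regions, as did 1.45% of 23154 protein-coding genes. The genes were chosen with earlier results of these data known, so nothing is read from this share either. Klf9 had 10 members, Sgk1 had 8, Ddit4 had 6, Errfi1 and Klf15 had 3 each, and Hif3a and Map3k6 had 2 each. Hif3a and Map3k6 were represented by a promoter peak alone, while at Klf9, Sgk1 and Ddit4 the listed motor cortex peaks were spread over 56.9 kb or more. The motor cortex members of Klf15 spanned 40.5 kb and those of Errfi1 spanned 5.21 kb, with no promoter peak among the latter.

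Promoter sequences from RefSeq are shown for 4 genes whose promoter peak was listed in at least 1 region and that hold a match to a searched motif, and for Klf9, whose start-site peak was listed in neither. Each runs 5′ to 3′ on the strand of the gene, from 250 bases before to 50 after the start, in build GRCr8, whose positions do not carry over to the mRatBN7.2 positions of the peaks. Capitals mark matches to 4 motifs on either strand. The GC box was searched as GGGCGG, and the CCAAT box by the letters of its name. The core of the cyclic AMP response element was searched as TGACG. The E-box was searched as CACGTG. Matches overlap in Klf15, where a cyclic AMP core runs into the E-box, and in Klf9, where 2 CCAAT boxes on opposite strands share letters.

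Sgk1, start 3 of 3, chr1:24804782-24805081, minus strand: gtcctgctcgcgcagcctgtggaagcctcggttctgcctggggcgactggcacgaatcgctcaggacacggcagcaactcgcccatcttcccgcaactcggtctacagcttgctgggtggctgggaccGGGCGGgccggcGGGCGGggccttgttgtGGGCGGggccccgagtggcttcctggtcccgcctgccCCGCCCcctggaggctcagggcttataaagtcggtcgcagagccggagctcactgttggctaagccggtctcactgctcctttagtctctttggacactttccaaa

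Hif3a, start 1 of 2, chr1:86877789-86878088, minus strand: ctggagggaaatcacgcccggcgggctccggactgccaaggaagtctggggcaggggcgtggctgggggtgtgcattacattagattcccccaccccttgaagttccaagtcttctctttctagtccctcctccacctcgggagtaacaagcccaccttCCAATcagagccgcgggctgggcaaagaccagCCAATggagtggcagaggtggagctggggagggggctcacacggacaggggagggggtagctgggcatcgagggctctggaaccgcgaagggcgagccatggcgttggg

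Klf15, chr4:124522765-124523064, plus strand: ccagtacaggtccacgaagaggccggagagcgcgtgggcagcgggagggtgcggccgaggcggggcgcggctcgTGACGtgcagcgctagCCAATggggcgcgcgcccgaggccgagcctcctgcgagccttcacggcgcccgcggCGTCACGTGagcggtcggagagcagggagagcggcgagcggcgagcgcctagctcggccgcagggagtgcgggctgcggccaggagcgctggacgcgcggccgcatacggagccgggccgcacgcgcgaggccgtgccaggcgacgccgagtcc

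Ddit4, chr20:28436988-28437287, minus strand: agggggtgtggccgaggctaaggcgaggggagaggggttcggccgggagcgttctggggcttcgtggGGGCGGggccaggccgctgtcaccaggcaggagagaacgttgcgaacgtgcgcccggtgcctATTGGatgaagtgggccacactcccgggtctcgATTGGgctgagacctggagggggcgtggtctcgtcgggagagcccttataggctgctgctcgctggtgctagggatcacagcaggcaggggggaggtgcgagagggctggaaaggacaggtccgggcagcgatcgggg

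Klf9, chr1:230126396-230126695, plus strand: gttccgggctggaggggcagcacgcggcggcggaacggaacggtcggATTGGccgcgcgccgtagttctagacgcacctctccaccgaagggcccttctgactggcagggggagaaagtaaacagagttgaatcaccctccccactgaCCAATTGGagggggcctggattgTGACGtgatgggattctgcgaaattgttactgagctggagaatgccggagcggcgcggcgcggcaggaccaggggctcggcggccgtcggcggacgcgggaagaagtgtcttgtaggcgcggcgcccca

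For Sgk1 and Hif3a, the start with the most matches is shown. The Sgk1 sequence shown held 4 GC boxes, which bind factors of the Sp and Klf families, and the Ddit4 sequence held 1. Start 2 of Sgk1 held 2 GC boxes, and start 1 of Sgk1 and start 2 of Hif3a held no match to any of the 4 motifs. CCAAT boxes, bound by the factor NF-Y, were found 2 times each in Hif3a and Ddit4, 3 times in Klf9 and 1 time in Klf15. Klf15 also had 2 cyclic AMP cores and Klf9 had 1. This core was in 3 of the 10 RefSeq starts of the 7 genes and in 21.2% of all rat promoters, and the E-box was in 1 and in 6.42%. Of the 10 starts, 4 held a GC box and 5 a CCAAT box, where 33.1% and 37.5% of 33465 rat promoters of the same length did. The single element of the glucocorticoid receptor, AGAACA, was searched on both strands as well. It was in none of the 10 member promoters and in 20.7% of all promoters, and the paired form, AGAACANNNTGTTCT, was in none of the 10 and in 0.0149% of all. These letters are absent from these short windows, and the peaks outside them were not searched because no genome sequence of mRatBN7.2 was used. The members' promoters had a GC content of 40.7% to 77.3%, against a median of 51.7% over all promoters.

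Hif3a encodes an oxygen-regulated factor of which short forms restrain the other hypoxia-inducible factors. Its SN peak, chr1:77743023-77750464, was 7442 bp wide, and its motor cortex peak, chr1:77743075-77750549, was 7475 bp wide. Both were annotated as promoter, and both were listed as higher. They shared 7390 bp, or 98.2% of their joint extent, so that the acetylated block had almost the same borders in the 2 regions, 52 bp apart on one side and 85 bp on the other. Wider than 98.6% of the SN list and 98% of the motor cortex list, it was the last peak of its window in either region: no further peak was found within 50 kb beyond it on the side of higher coordinates. The other 5 SN peaks and 6 motor cortex peaks of the window lay on the opposite side, and none was listed as changed.

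Map3k6 encodes a kinase that pairs with the related stress kinase ASK1. The SN peak annotated as its promoter, chr5:145439477-145441769, was 2293 bp wide, and the motor cortex peak, chr5:145440156-145441303, was 1148 bp wide. The motor cortex peak lay wholly inside the SN peak and covered 50.1% of it. Thus both regions listed the same promoter as higher, but as a wide peak in the SN, wider than 83.7% of its list, and as a peak below the median width in the motor cortex, wider than 46% of its list. It was the only listed change among 9 SN peaks and 8 motor cortex peaks within 50 kb.

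**Figure D1:**
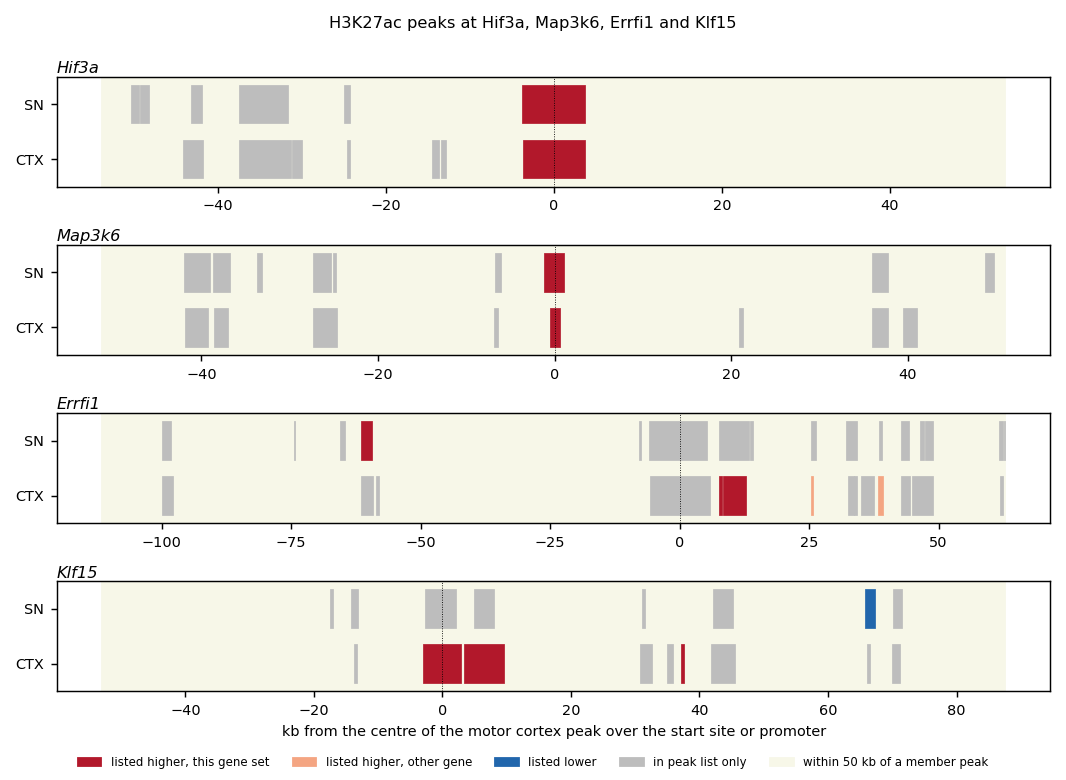
H3K27ac peaks at Hif3a, Map3k6, Errfi1 and Klf15, drawn as bars by distance in kb from the centre of the motor cortex peak over the start site or promoter, with the SN above and the motor cortex (CTX) below. Red bars are members listed as higher in rotenone rats, orange bars peaks listed as higher under other gene names, blue bars peaks listed as lower and grey bars peaks of the lists without a listed change; Hif3a and Map3k6 have red bars at 0 in both regions, Klf15 at 0 in the motor cortex, and Errfi1 on either side of a grey start-site bar.

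Klf15 encodes a transcription factor that controls amino acid and glucose use. In the motor cortex its start-site peak, chr4:122964645-122970550, was 5906 bp wide and listed as higher. An intronic peak of 6361 bp followed after a gap of 334 bp, at chr4:122970885-122977245, and was also listed as higher. Together they formed a nearly unbroken block over the front of the gene. The third member, chr4:123004797-123005178, was distal and at 382 bp among the narrowest, wider than 6.2% of the list. The SN had a peak of 4872 bp over the same start site, chr4:122964843-122969714, and one of 3164 bp inside the intronic peak, and neither was listed. The intronic block was thus acetylated over 49.7% of its motor cortex width in the SN, and the distal peak had no SN counterpart. A test between the regions was not possible, so the absence of a listed SN change does not show that Klf15 behaved differently there. One SN peak of the window, chr4:123033293-123034934, was listed as lower under Aldh1l1, an astrocyte enzyme of folate metabolism whose gene is the next protein-coding one in RefSeq order.

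Errfi1 encodes Mig6, which binds and silences the epidermal growth factor receptor. Its start site lay under broad peaks of 11098 bp in the SN, chr5:161323077-161334174, and 11519 bp in the motor cortex, chr5:161323159-161334677, and neither was listed as changed. The listed peaks flanked them, on different sides in the 2 regions. In the SN the member lay upstream, chr5:161267407-161269413, a distal peak of 2007 bp that ended 53.7 kb before the start-site peak. A motor cortex peak shared 2000 bp of it but was not listed. The motor cortex members lay downstream of the start-site peak, at the gene's end. They were a 3′ UTR peak of 673 bp, chr5:161336481-161337153, and a downstream peak of 4404 bp, chr5:161337291-161341694, split by 137 bp. A single unlisted SN peak of 5755 bp, chr5:161336563-161342317, overlapped both. Beyond them lie the peaks of Park7, the next gene in RefSeq order, which encodes DJ-1, a protein lost in a recessive form of Parkinson's disease. Under Park7, 2 motor cortex peaks were listed as higher, one of 412 bp in its 3′ UTR, chr5:161354306-161354717, and one of 922 bp in an exon, chr5:161367203-161368124. SN peaks overlapped both and were not listed.

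Ddit4 encodes REDD1, which is induced by stress and restrains mTORC1. In the motor cortex its start-site peak of 12622 bp, chr20:27889832-27902453, was listed as higher. Directly upstream came a peak of 1250 bp, chr20:27902557-27903806, after a gap of 103 bp, and a peak of 13764 bp, chr20:27904234-27917997, after 427 bp more. Downstream lay members of 3704 bp, chr20:27864832-27868535, and 1535 bp, chr20:27861147-27862681. The 5 members spanned 56.9 kb. In the SN the start-site peak had nearly the same borders, chr20:27889814-27902371, with 99.9% of its 12558 bp shared, and was not listed. The SN member lay 1.59 kb upstream of it, chr20:27903961-27909582, and was 5622 bp wide. It corresponds to the near part of the wide upstream motor cortex peak, of which it covered 38.9%. An unlisted SN peak of 6562 bp took up the far part. The SN list thus split this stretch into separate peaks, of which only the near one was listed. The motor cortex list held it as a single peak, so the listings do not show how far along it the change reached.

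The listed change around Ddit4 also ran into its neighbours in the motor cortex. Another 5 peaks of the window were listed as higher, 4 under Ascc1, which encodes a subunit of a transcription coactivator complex, and 1 of 13316 bp under Dnajb12, which encodes a co-chaperone of the endoplasmic reticulum. From the Ddit4 start-site peak onward, 7 neighbouring motor cortex peaks in a row were listed as higher, from chr20:27889832 to 27939568. Over the whole motor cortex list, 4 of 3121 runs of neighbouring higher peaks were that long or longer. The run was the longest of the member windows and is made of the same listings that selected the members, so nothing is read from its rarity. In the SN, 1 of the 23 peaks of the window was listed. This was also the most densely acetylated window, with SN peaks over 45.8% of its length and motor cortex peaks over 55%.

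Sgk1 encodes a kinase that raises the activity of ion channels and transporters. Its start-site peak was listed as higher in both regions and was among the widest members, 10373 bp in the SN, chr1:22978852-22989224, and 10709 bp in the motor cortex, chr1:22978962-22989670. They shared 94.9% of their joint extent. A second pair lay far upstream, with 1677 bp in the SN, chr1:23307622-23309298, and 1744 bp in the motor cortex, chr1:23307505-23309248. These too were listed as higher in both regions, shared 90.7% of their joint extent, and stood 318 kb from the start-site peak of their region. The same 2 elements, 1 at the gene and 1 distant, thus carried the listed change in both regions.

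The motor cortex had 4 further Sgk1 members. One of 1808 bp, chr1:23132150-23133957, stood 142 kb upstream. Peaks of 2838 bp, chr1:23350749-23353586, and 4920 bp, chr1:23353701-23358620, adjoined each other across 114 bp at 361 and 364 kb. The last, chr1:23286724-23289129, 2406 bp wide and 297 kb upstream, was the one member listed as lower. It lay 18.4 kb from the distal element listed as higher, with 2 unlisted peaks between them. All 4 were overlapped by SN peaks, none of them listed, and 55.4% of all motor cortex peaks listed as lower had an SN peak over them. The distant members carry the name Sgk1 by the authors' nearest-gene annotation, and which gene they act on was not measured. At the far end of this stretch, 2 motor cortex peaks of 1901 and 3999 bp were listed as higher under Clvs2, a lipid-binding protein of neurons.

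Klf9 encodes a transcription factor that responds to glucocorticoids and thyroid hormone in brain. Its start site lay under the widest peaks of any member gene, 23903 bp in the SN, chr1:220691441-220715343, and 23507 bp in the motor cortex, chr1:220691810-220715316, each wider than 99.9% of its list. Neither was listed as changed. The SN member lay 1.5 kb behind this domain, chr1:220716840-220724051, a peak of 7212 bp annotated to the 3′ UTR. A motor cortex peak of 6252 bp inside it, chr1:220717512-220723763, was not listed.

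Upstream of the gene, Klf9 had 9 motor cortex members, all listed as higher, over 175 kb. Among the 2459 gene names with a higher motor cortex peak, 5 had more such peaks than Klf9 and the median was 1. This count rests on the listing that selected the members and on the authors' nearest-gene names, so nothing is read from it. Which gene these peaks act on was not measured. The members came in groups. Next to the promoter domain sat chr1:220690730-220691626, 897 bp wide and 183 bp from its edge, and chr1:220684566-220686250, 1685 bp wide and 5.56 kb away. Another 3 sat 60 to 65.2 kb away, at chr1:220625544-220626584, chr1:220628826-220629787 and chr1:220631310-220631815, with widths of 1041, 962 and 506 bp and no other motor cortex peak between them. A further 3 sat 108 to 119 kb away, at chr1:220572038-220573095, chr1:220581243-220582297 and chr1:220583059-220584017, with widths of 1058, 1055 and 959 bp. The farthest, chr1:220516431-220518712, 2282 bp wide and 173 kb away, lies in an intron of Trpm3, a cation channel gene, and 2 peaks at the end of the window were listed as higher under Mir204, a microRNA gene. In contrast to the promoter domain, 7 of these 9 members were narrower than the motor cortex median of 1245 bp. Of the 9, 3 had no SN peak over them, and the SN peaks over the other 6 were not listed. The member nearest the gene overlapped the SN promoter domain itself, by 186 bp.

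**Figure D2:**
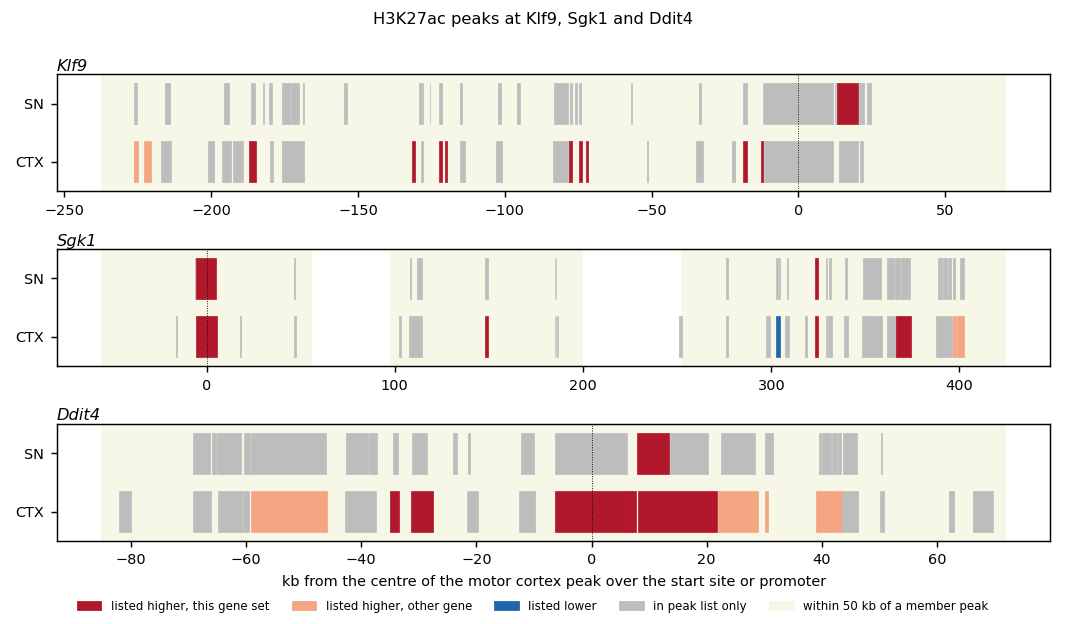
H3K27ac peaks at Klf9, Sgk1 and Ddit4, drawn as in the map of the compact genes, with pale shading for the stretches within 50 kb of a member and peaks outside them not drawn. Klf9 has 9 red bars in the motor cortex (CTX) and 1 in the SN on opposite sides of a grey start-site domain. Sgk1 has red bars at 0 in both regions and a further pair, separated from the start-site bars by a gap of 318 kb. Ddit4 has a run of red and orange bars in the motor cortex where the SN has 1 red bar.

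By position in the gene, start-site or promoter peaks were listed as higher in both regions for Hif3a, Map3k6 and Sgk1, in the motor cortex only for Ddit4 and Klf15, and in neither for Klf9 and Errfi1. The regions were not tested against each other. Of all 34 members, 8 were annotated as promoter and 21 as distal intergenic. Among the motor cortex members listed as higher, 17 of 26 were distal intergenic, a class that made up 38.1% of all higher motor cortex peaks, and in the SN it was 3 of 7 against 34.9%. Klf9 alone gave 8 of the 17. Promoters were 5 of the 26 in the motor cortex, where they made up 15.4% of all higher peaks, and 3 of the 7 in the SN, where they made up 31.6%.

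The promoter members of Hif3a, Sgk1, Klf15 and Ddit4 were 5906 bp wide or more, and those of Map3k6 were 2293 and 1148 bp. The median of all promoter members was 7442 bp over 3 SN peaks and 7475 bp over 5 motor cortex peaks, against 3080 bp over all 276 SN promoter peaks listed as higher and 1997 bp over the 620 of the motor cortex. Distal members had medians of 2007 bp over 3 peaks and 1392.5 bp over 18, the Sgk1 peak listed as lower included, against 2107 and 1384 bp for all distal peaks listed as higher. Over all members the median was 5622 bp for SN and 1744 bp for motor cortex peaks, and 2482.5 and 1634 bp over all higher peaks.

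**Figure D3:**
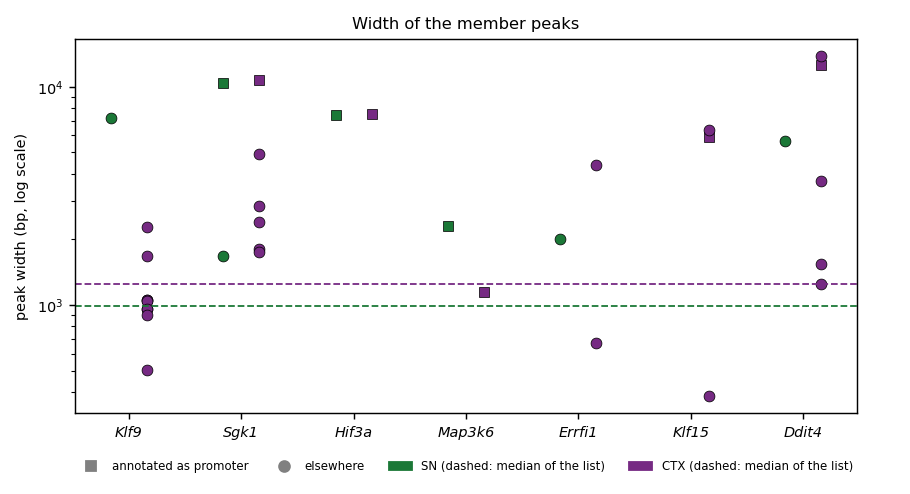
Width in bp, on a log axis, of each of the 34 member peaks by gene, with SN peaks in green, motor cortex (CTX) peaks in purple, squares for peaks annotated as promoter and circles for the others; dashed lines are the medians of the 2 whole lists, 994 and 1245 bp. The promoter peaks of Sgk1, Hif3a and Ddit4 sit between 7442 and 12622 bp, while the motor cortex peak of Map3k6 and most of those of Klf9 sit near the lines.

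All 7 SN members were overlapped by a motor cortex peak, as were 65.3% of all SN peaks and 89% of those listed as higher. For 5 of the 7 (71.4%), the overlapping motor cortex peak was itself listed as higher, against 27.3% of all higher SN peaks. These 5 pairs belonged to 4 genes, Hif3a, Map3k6, Ddit4 and, with 2, Sgk1, and both shares rest on the listing that selected the members, so nothing is read from them. The SN peaks of Klf9 and Errfi1 overlapped unlisted motor cortex peaks. Each rat gave tissue of both regions, so the 2 regions do not measure the exposure independently.

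Seen from the motor cortex, 21 of the 26 higher members had an SN peak over them, where 55.1% of all motor cortex peaks and 70.5% of the higher ones did. For 5 of the 26 (19.2%) the SN peak was listed as higher, against 6.33% of all higher motor cortex peaks. These are the same 5 pairs, so nothing is read from this share either. For 16 it was unlisted and for 5 there was none. The 5 without an SN peak were 3 of Klf9, 1 of Klf15 and 1 of Ddit4, with widths from 382 to 1250 bp, and every wider motor cortex member listed as higher had an SN peak over it.

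Within 50 kb of the members, the lists held 121 SN and 116 motor cortex peaks in 9 windows of 1373638 bp in all. SN peaks covered 19.5% of this length and motor cortex peaks 23.9%. The motor cortex covered more than the SN in 8 of the 9 windows, and the window of Map3k6 went the other way with 13.5% in the SN against 12.1%. The windows were set by 27 motor cortex and 7 SN members, which favours motor cortex cover. Around all 4015 higher motor cortex peaks the median cover was likewise 18.1% by motor cortex and 13.6% by SN peaks. Around all 874 higher SN peaks it was 19.1% and 18.5%. Of the acetylated length of the SN, 90.2% was also under a motor cortex peak, and 73.5% the other way round. Among the peaks of these windows, 7 SN and 37 motor cortex peaks were listed as higher, of which 11 motor cortex peaks were under other gene names, and 1 of each list as lower. Around single higher motor cortex members the median cover by motor cortex peaks was 23.1%, against 18.1% around all 4015 higher motor cortex peaks, whose middle 50% ran from 8.73% to 29.9%. Around the 7 SN members the cover by SN peaks was 16.1%, against 18.5% around all 874.

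**Figure D4:**
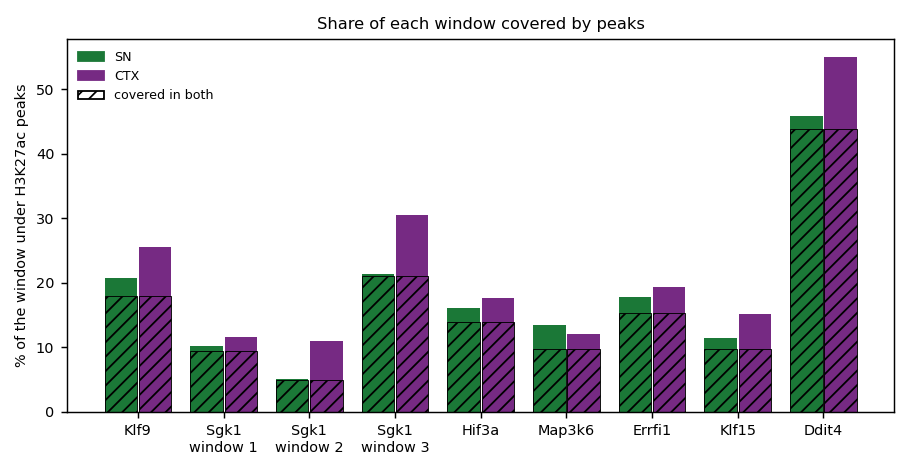
Share in percent of each of the 9 windows around the members that lies under H3K27ac peaks of the SN (green) and the motor cortex (CTX, purple), with hatching for the share covered in both regions; bars start at 0 and the lists pool all rats, so there is no error bar. Ddit4 has the highest cover, 45.8% and 55%, and the second Sgk1 window the lowest, 5.06% and 11%.

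Hif3a, Map3k6 and Sgk1 thus had a promoter peak listed as higher in both regions over the same stretch of DNA, as did 49 other genes. Ranked by the length shared between regions, Sgk1 was at place 3 and Hif3a at place 5 of 56 pairs, and Map3k6 at place 49. The 5 other genes with the longest shared stretch were Git1, with 18856 bp, Pim3 with 11677 bp, Olfml2b with 8680 bp, Jade2 with 5563 bp and Synj2 with 5092 bp.

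A further 30 genes known to respond to glucocorticoids or to belong to the receptor's pathway were looked up in the same lists. In the SN, 9 of the 30 had a peak listed as higher, where 2.95% of protein-coding genes did, and 1 had a peak listed as lower, against 3.36%. A higher motor cortex peak was listed for 17, against 10.1%, and a lower one for 4, against 11.1%. This list was drawn up with results of these data known, so the counts are a description. Higher peaks in both regions were found for Dusp1 (a phosphatase that ends MAP kinase signals), Nfkbia (the inhibitor of NF-kB), Cdkn1a (a cell cycle inhibitor), Cebpb and Cebpd (transcription factors of inflammation and metabolism), Rhob (a small GTPase) and Gadd45g (a stress sensor). Mt2A and Bcl6 had them in the SN alone. Another 10 had them in the motor cortex alone, among them Fkbp5, a chaperone that dampens the receptor, Tsc22d3, which encodes the anti-inflammatory protein GILZ, and Zbtb16, Pdk4, Angptl4 and Txnip. Mt1, a metal-binding protein whose gene is a close copy of Mt2A, was another. Several of these, such as Cebpb, Cebpd and Nfkbia, take part in immune responses as well. Lower peaks were listed for Cdkn1c in the SN and for Fam107a, Zbtb16, Dusp1 and Rhob in the motor cortex. No peak was listed for 9 genes, which included Per1 and the receptor genes Nr3c1 and Nr3c2.

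Marker genes of brain cell types also had listed peaks, and their part in these results was not tested. These lists are short, and over all protein-coding genes 2.95% had a higher and 3.36% a lower peak in the SN, and 10.1% and 11.1% in the motor cortex. Of the 6 endothelial markers, 5 had a motor cortex peak listed as higher and none had one listed as lower, and Cldn5, a tight junction gene of brain vessels, had 9. None of the 6 had a listed peak in the SN. Of the 8 astrocyte markers, 6 had a lower and 2 a higher peak in the motor cortex, and 4 had a lower peak in the SN. Of the microglial markers, 3 of 7 had a lower peak in the motor cortex and 1, Itgam, a higher one in the SN. Oligodendrocyte markers had a lower peak for 2 of 9 in each region and a higher one for 1 in the motor cortex. Among the 5 neuronal markers, 2 had higher and 2 lower peaks in the motor cortex, and none had a listed SN peak. Of the 4 markers of dopaminergic neurons, 1, Ddc, had higher peaks in the motor cortex, and none had a listed peak in the SN.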

How the data were processed

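The 9 rats gave 18 tissue samples for H3K27ac ChIP-seq, 16 sequenced on 2 lanes and 2, both from the motor cortex of rotenone rats, on 1 lane, so lanes were not balanced between treatments in that region. According to the methods and the submitters' processing notes, the authors used Trim Galore 0.6.7 for trimming, Bowtie2 2.4.4 for alignment to mRatBN7.2, Picard 2.6.0 for duplicates and, on the merged rats of each region, MACS2 2.2.7.1 for peak calling, with pooled input DNA, labelled as cortex, as control. The deposited lists hold 70744 SN and 80765 motor cortex peaks as positions, with no count or signal, so depth per sample, and with it the precision of a single peak, is unknown here.

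The members were found by exact match of chromosome, start and end between the lists and the authors' differentially acetylated peaks, read from a text copy in which names can be misread; of 11318 peaks read, 1 matched no deposited peak and 2 that matched had no readable gene name. Those lists also hold fold changes, p-values and FDR values of the authors' edgeR comparison, which were not used. Positions count from 1. Gene names and annotation classes are the authors' nearest-gene annotation. Start-site peaks were found from the authors' distance annotation, and for Hif3a and Map3k6 from the promoter class. Peaks sharing 1 bp or more were taken as overlapping, and windows reached 50 kb to each side of a member. Overlap and merging were checked on simulated peaks. Python 3.11.15, scipy 1.17.1 and matplotlib 3.10.9 were used. Motif and neighbour searches used RefSeq tables of GRCr8, in which all 7 genes and all 30 pathway genes were found. Members, gene lists and alternatives were chosen with earlier results of these data known. The genes named are the 7 members, genes with a listed peak in their windows, the 5 genes most like them and genes of the lists. No test over rats was possible, and none was made over peaks.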

Additional observations from a re-analysis of the deposited data

How the results depend on the processing

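No paired analysis was possible because the lists pool all rats of a region, and for the same reason no rat could be left out. Of 28 alternative values, 18 stayed within the counting interval or within 1.5 times the count. A reciprocal overlap of 50% lowered the share of motor cortex members with an SN counterpart from 81.5% to 59.3%. Windows of 25 kb gave a cover of 24.5% by SN and 29% by motor cortex peaks, windows of 100 kb gave 14.9% and 19.6% with 187 motor cortex peaks, and peaks of at least 1000 bp alone gave 17.5% and 22.4% with 70 SN peaks. The motor cortex cover was above the SN cover in all of these, as it also was around all higher motor cortex peaks of the list. The number of genes with a peak listed as higher in both regions fell from 6 to 3 when only promoter peaks counted, and to 4 when the peaks of the regions had to overlap. Misread gene names added no member. Depth per rat is not in the files, and the study describes more reads for the motor cortex than for the SN. The deposited SN list also holds more peaks than the study describes, so some SN peaks may never have been compared. An unlisted peak, above all in the SN, is therefore not shown to be unchanged.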

Other observations

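The numbers in the peak names rise along the windows with gaps, for which the sources used here state no filter. Within the member windows, 59.3% of the SN numbers and 63% of the motor cortex numbers from the first to the last peak of each window were present, against 47.6% and 58.2% over the whole lists. The first and last number of each window are present by construction, which raises the window shares, so nothing is read from the difference. At the rim of the windows, the outermost SN peak counted lay 49910 bp from a member, near Errfi1, and the nearest one left out lay 50001 bp away, near Map3k6. In the motor cortex these distances were 49792 bp, at the distal Sgk1 members, and 51700 bp, near Map3k6.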
